A study of Mus musculus with 13 samples.

Results

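Rad21 peaks that carried a NIPBL peak and no Med1 peak made up 9019 of the 27207 Rad21 peaks called in double-positive thymocytes, or 33.1% (95% exact binomial interval 32.6% to 33.7%). A Rad21 interval was counted as a member when it overlapped a NIPBL interval by 1 bp or more and overlapped no Med1 interval. The remaining Rad21 intervals comprised 16445 with neither protein, called Rad21 alone below, 1174 with both NIPBL and Med1, and 569 with Med1 and no NIPBL. All 3 lists came from sorted CD4+CD8+ thymocytes of wild type mice on a mixed C57BL\6 and 129 background, the developmental stage in the thymus that carries both coreceptors. ChIP-seq, which sequences the DNA bound to an immunoprecipitated protein, was made once per protein, so no peak has a replicate, and the lists give positions with no height, score or read depth. The labels do not give the age or number of the mice. Peak lists also hold no marker of cell type, so the sorted stage rests on the labels alone.

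Rad21 is the subunit that closes the ring-shaped cohesin complex, which holds sister chromatids together and folds the genome into loops. NIPBL, working with MAU2, loads cohesin onto chromatin and stimulates its ATPase, and CTCF is the protein known for stopping cohesin at fixed sites. Med1 is a subunit of Mediator, the complex that bridges enhancer-bound transcription factors and RNA polymerase II, and is often used to mark enhancers and active promoters. A site with Rad21 and NIPBL and without a called Med1 peak therefore has cohesin and its loader above the calling threshold, while Med1 lies below it. With 15112 intervals the Med1 list was shorter than that of Rad21 and that of NIPBL (51994 intervals), and a missing Med1 peak does not show that Mediator was absent.

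The antibody steps were not the same for the 3 proteins. Per the labels' protocols, the Rad21 lysate was prepared at a higher salt concentration than the lysate shared by the NIPBL and Med1 libraries. Med1 intervals were also spread unevenly along the genome. Over the 19 autosomes the number of Med1 intervals per Rad21 interval had a median of 0.488, and it reached 0.992 on chromosome 1 and 1.11 on chromosome 17. With both chromosomes left out, the member share of Rad21 intervals was 33.3%, against 33.1% with them.

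All comparisons below describe positions in 3 single libraries. They carry no test, because intervals of 1 library are not replicates of a condition, and the intervals given cover counting error only. The rule used the overlap with NIPBL and Med1, so the presence of NIPBL under the members and the gap in Med1 at their centre are not findings. At the edge of the rule, 18 members shared 10 bp or less with NIPBL, 4 of them a single base, while 25 Rad21 alone intervals lay 10 bp or less from a NIPBL interval. On the Med1 side, 5 members lay 10 bp or less from a Med1 interval, 1 of them abutting it, and 16 intervals with all 3 proteins shared 10 bp or less with Med1.

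Most members had a simple arrangement of 1 Rad21 interval on 1 NIPBL interval. Exactly 1 NIPBL interval was present at 8701 members (96.5%), 2 at 313 and 3 at 5. The midpoints of the Rad21 interval and its NIPBL partner, the NIPBL interval with the largest overlap, lay a median of 57.5 bp apart, with quartiles of 25.5 and 128 bp. Midpoints lay within 50 bp of each other at 45.3% of members and within 100 bp at 68.0%. NIPBL covered a median of 80.3% of the Rad21 interval and less than 50% of it at 805 members (8.93%). The NIPBL interval lay inside the Rad21 interval at 2655 members, the Rad21 interval lay inside the NIPBL interval at 2145, and the remaining 4219 were staggered.

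The NIPBL partners varied in width. Partners of up to 300 bp were found at 4047 members (44.9%), of 301 to 500 bp at 2447, of 501 to 1000 bp at 1885 and of over 1000 bp at 640 (7.10%). The Rad21 interval itself hardly differed between these groups, with median widths of 333, 331, 325 and 327 bp. The distance between midpoints grew from a median of 37.5 bp at the narrowest partners to 347 bp at the widest, a distance that a wider partner permits by its size. The Rad21 midpoint fell in the outer 25% on either side of the partner, or beyond its edge, at 31.2%, 26.5%, 39.0% and 55.8% of members from the narrowest to the widest group (357 of 640 in the widest). These outer parts make up 50% of a partner's length, but positions beyond its edge come on top, so 50% is not an exact reference. In the widest group most Rad21 midpoints lay outside the middle part of the partner.

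The surroundings of the members changed with the partner as well. Another NIPBL interval, not overlapping the member, lay within 1 kb of 26.0% of members with a partner of up to 300 bp, of 58.1% of those with a partner of 501 to 1000 bp and of 55.3% of those with a partner of over 1000 bp. Another Rad21 interval lay within 1 kb of 10.9%, 20.3% and 42.2% of these same groups. Med1, which no member overlapped, lay within 1 kb of 173 of 4047 members with the narrowest partners (4.27%) and of 113 of 640 with the widest (17.7%). The partner itself reached a Med1 interval elsewhere along its length at 215 members (2.38%), of which 107 had a partner of over 1000 bp. Intervals of all 3 proteins were thus more often within 1 kb of members with partners of over 1000 bp than of those with the narrowest. A wide partner has more room to hold another Rad21 interval or to reach Med1. How much of the difference follows from partner size was not tested.

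**Figure D1:**
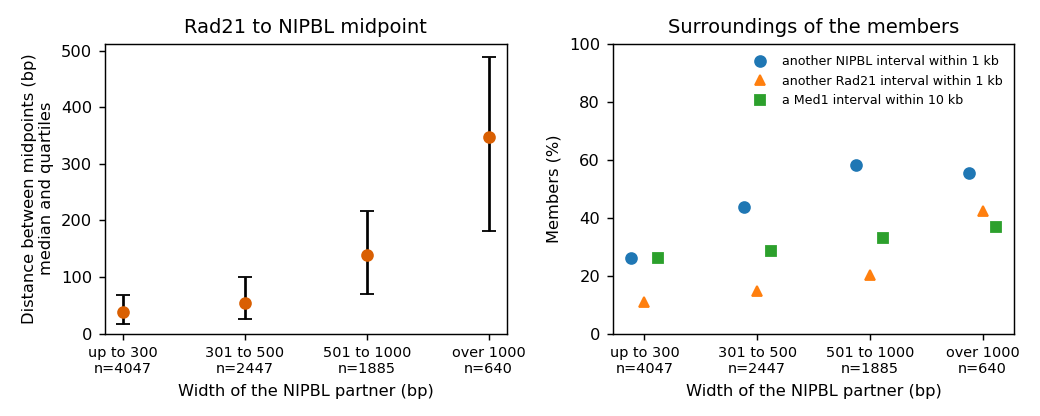
Left, distance between the midpoints of the Rad21 interval and its NIPBL partner in bp (points, medians; bars, lower and upper quartiles) for members grouped by the width of the partner. Right, percentage of members in each group with another NIPBL interval within 1 kb, another Rad21 interval within 1 kb or a Med1 interval within 10 kb; the share with Med1 within 10 kb goes from 26.2% at the narrowest partners to 36.9% at the widest.

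As a list, the 8839 distinct NIPBL partners of members had a median width of 318 bp, and 6.09% of them exceeded 1000 bp. NIPBL intervals without Rad21 or Med1, 37202 in number, had a median of 291 bp and exceeded 1000 bp in 2.69% of cases. The 4497 NIPBL intervals with Med1 and without Rad21 had a median of 425 bp, with 9.96% over 1000 bp. Member partners thus stood between these lists in width. A wider interval has more room to overlap another, and how much of this order follows from the overlap rule was not tested.

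Member Rad21 intervals were slightly wider than Rad21 alone. Their median width was 331 bp (quartiles 289 and 381), the same as for intervals with all 3 proteins (331 bp) and above the 302 bp of Rad21 alone (quartiles 272 and 335). On each of the 20 chromosomes with at least 10 members, which leaves out Y, the member median was the larger, at 322.5 to 337 bp against 295 to 307 bp. Members made up 23.7% of Rad21 intervals of 251 to 300 bp, 30.5% of those of 301 to 350 bp, 43.4% of those of 351 to 400 bp, 57.7% of those of 401 to 500 bp and 69.8% of those over 500 bp. The narrowest Rad21 intervals, of up to 250 bp, departed from this order with 27.6%. Width is tied to the chance of an overlap and cannot be told apart from peak strength here, since the lists hold no height.

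Further NIPBL intervals lay around the members. At 500 bp to either side of the Rad21 midpoint, 18.8% and 18.7% of members had a NIPBL interval, which includes wide partners. NIPBL intervals that did not overlap the member stood at 9.27% and 8.78% there, and at 8.57% and 8.24% at 2000 bp. Around Rad21 alone the values were 1.51% and 1.65% at 500 bp and 2.29% and 2.02% at 2000 bp. In all, 3575 members (39.6%, interval 38.6% to 40.7%) had another NIPBL interval within 1 kb. This held for 1437 of 16445 Rad21 alone intervals (8.74%, interval 8.31% to 9.18%) and 564 of 1174 intervals with all 3 proteins (48.0%). For intervals with Med1 and no NIPBL it was 143 of 569 (25.1%). The rule chose members and Rad21 alone by overlap with this same NIPBL list. The contrast between them is therefore in part built into the rule, and how much was not tested. The closest NIPBL intervals lay 1 bp apart, as did the closest intervals in the Rad21 and Med1 lists. Whether neighbouring NIPBL intervals are pieces of 1 broad domain was not tested.

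Although no member overlapped Med1, members lay nearer to Med1 than Rad21 alone did. The median gap to the nearest Med1 interval was 26345 bp at members (95% order-statistic interval 25310 to 27365 bp) and 43857 bp at Rad21 alone (42549 to 45189 bp). A Med1 interval lay within 1 kb of 629 members (6.97%) and of 361 Rad21 alone intervals (2.20%), and within 10 kb of 2618 members (29.0%) and 2969 Rad21 alone intervals (18.1%). At the other end, 80.2% of members and 70.8% of Rad21 alone intervals had Med1 within 100 kb. The member median was the smaller on 20 of 20 chromosomes with at least 10 members, from 11742 bp on chromosome 17 to 94578.5 bp on chromosome X. In each range of Rad21 width, members also had the higher share with Med1 within 10 kb. Among intervals of 301 to 350 bp it was 28.9% of 2678 members and 17.4% of 5599 Rad21 alone intervals. The shares were closer at 401 to 500 bp, with 27.2% of 1183 members and 21.9% of 680 Rad21 alone intervals. Whether width accounts for the difference was not tested.

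**Figure D2:**
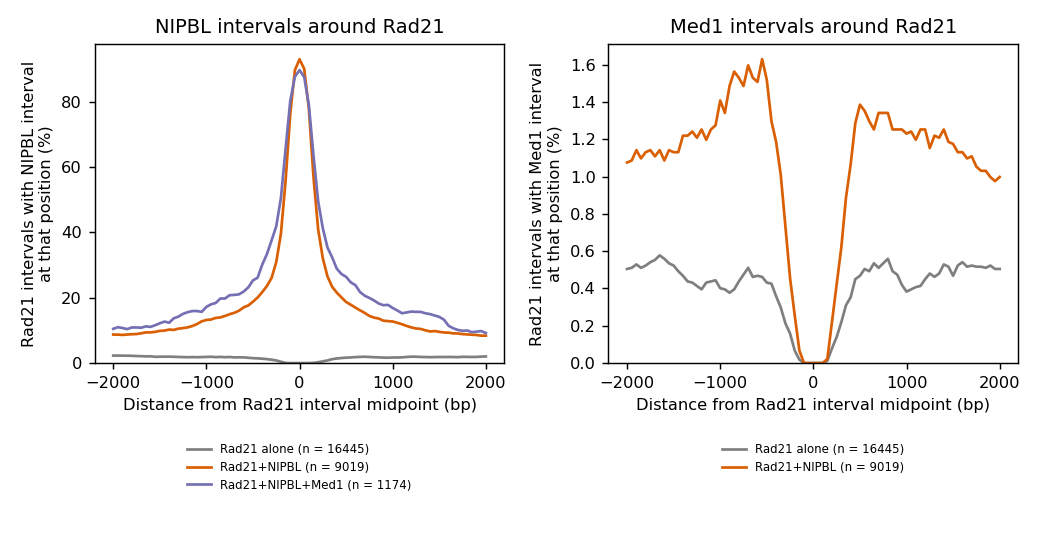
Percentage of Rad21 intervals with a NIPBL interval (left, partners included) or a Med1 interval (right) at each distance in bp from the Rad21 midpoint, by class. The peak of NIPBL and the empty centre of Med1 are set by the rule. Outside them the member line stays above that of Rad21 alone, with NIPBL at 8.73% and 2.29% at 2000 bp on the left-hand side. The classes were chosen by overlap with this same NIPBL list.

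Members also had closer Rad21 neighbours than Rad21 alone did. The median gap to the nearest other Rad21 interval was 6955 bp at members (interval 6647 to 7268 bp), 14547 bp at Rad21 alone (14187 to 14951 bp) and 5796 bp at intervals with all 3 proteins (4880 to 6875 bp). Another Rad21 interval lay within 1 kb of 1454 members (16.1%) and 902 Rad21 alone intervals (5.48%). Within 10 kb the shares were 59.0% and 40.1%. Intervals with Med1 and no NIPBL had 16.7% within 1 kb and 47.5% within 10 kb. With all 3 proteins the shares were 25.0% and 61.5%, so close Rad21 neighbours were not particular to members. The member median was again the smaller on 20 of 20 chromosomes, at 5828 to 13546.5 bp against 10871 to 30028 bp. Joining Rad21 intervals less than 200 bp apart, an alternative added after the data were seen, gave 7634.5 bp for members and 14782.5 bp for Rad21 alone.

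**Figure D3:**
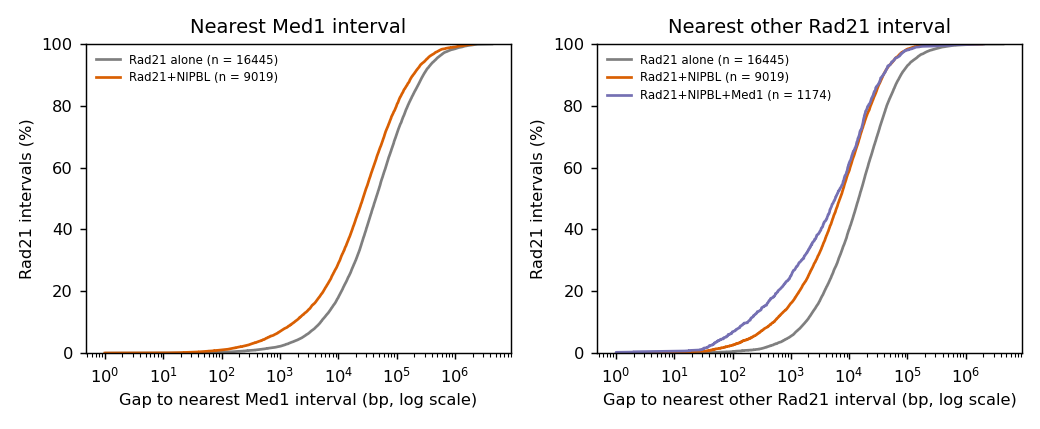
Cumulative percentage of Rad21 intervals by the gap in bp (log scale) to the nearest Med1 interval (left) and the nearest other Rad21 interval (right), by class; gaps of 0 are drawn at 1 bp. The member curve lies to the left of Rad21 alone in both panels, with medians of 26345 against 43857 bp and of 6955 against 14547 bp.

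The neighbours of members were often members, and each other class also had its own kind as neighbour above its share of the list. The nearest other Rad21 interval was a member for 4316 of 9019 members (47.9%, interval 46.8% to 48.9%), for 27.2% of Rad21 alone intervals and for 37.4% of intervals with all 3 proteins, while members were 33.1% of the list. Among the 1454 members with a Rad21 neighbour within 1 kb, that neighbour was a member in 1044 cases (71.8%), against 294 of 902 such Rad21 alone intervals (32.6%). Some pairs shared a partner: at 412 members the NIPBL partner touched another Rad21 interval. For 45.8% of members the nearest other Rad21 interval was Rad21 alone. The share with a nearest neighbour of the same class was 67.7% for Rad21 alone, which was 60.4% of the list. It was 18.1% for intervals with all 3 proteins, against 4.32% of the list. For intervals with Med1 and no NIPBL it was 9.67%, against 2.09% of the list.

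When members no more than 10 kb apart were strung into runs, 5552 stood alone and 3467 (38.4%) fell into 1377 runs of 2 or more. Runs of 5 or more numbered 65 and held 423 members. Like counts for the other classes or for all Rad21 intervals are not given here. The run counts therefore do not set members apart from other Rad21 intervals. The longest run had 25 members over 54.568 kb at chr6:71272530-71327097 (mm9). Each of the 25 Rad21 intervals called in that stretch was a member, with widths of 183 to 608 bp and gaps between members of 61 to 7698 bp. The stretch also held 54 NIPBL intervals, 24 of which touched a member, and NIPBL intervals covered 47.9% of its bases. No Med1 interval was called there, and the member closest to one lay 51961 bp away.

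The second run had 13 members over 39.671 kb at chr11:87533805-87573475. It also held 2 Rad21 alone intervals, 3 with all 3 proteins and 4 Med1 intervals, so Med1 sites were interspersed among its members. The third run had 12 members over 30.398 kb at chr1:135945348-135975745, where all 12 Rad21 intervals were members, 1 Med1 interval lay between them and another lay 73 bp beyond the last member. NIPBL covered 46.0% and 40.3% of these 2 stretches, with 27 and 24 intervals. The fourth run, named here after its values were seen, had 10 members over 17.297 kb at chr9:32503059-32520355, with 25 NIPBL intervals over 55.0% of the bases, no Med1 interval and the nearest Med1 138682 bp from a member. The long runs therefore differed in Med1, from none near the run to several inside it. The genes at these positions are not named, as no gene annotation of the mm9 build was used here.

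**Figure D4:**
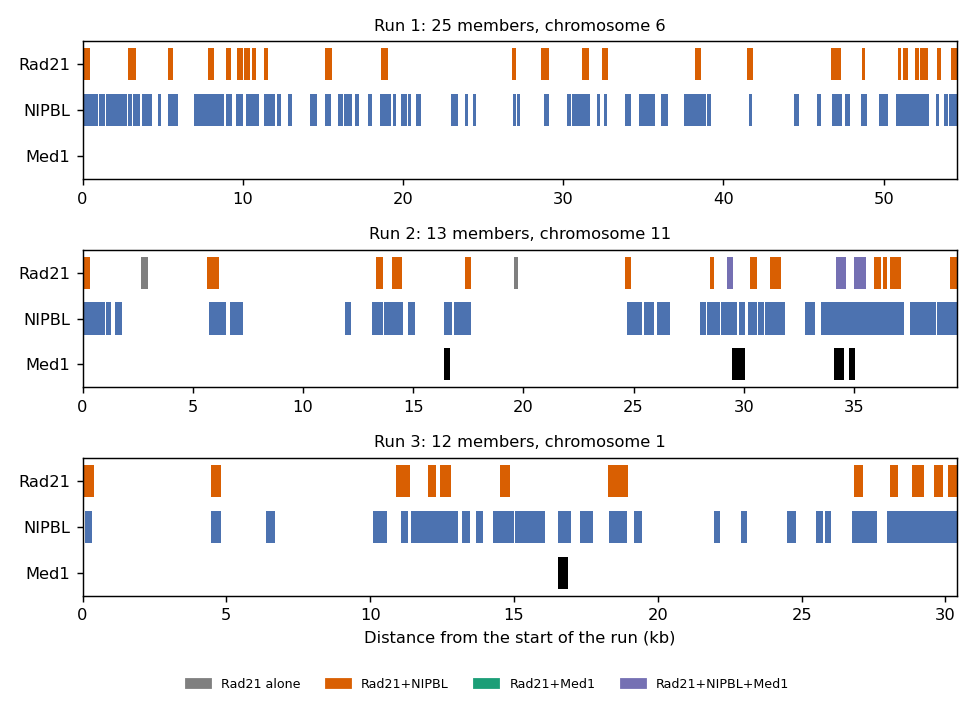
Rad21, NIPBL and Med1 intervals along the 3 longest runs of members, by distance in kb from the start of each run; Rad21 intervals are coloured by class. The first run holds 25 members and no Med1 interval, the second 13 members and 4 Med1 intervals, the third 12 members and 1 Med1 interval.

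Single members at the extremes of the class were of different kinds. The widest member measured 1509 bp at chr3:21974666-21976174 and lay wholly inside a NIPBL interval of 1930 bp, with another member 39 bp away and the nearest Med1 interval 109970 bp away. The next widest, of 1488 bp at chr14:54846745-54848232, touched 2 NIPBL intervals that together covered 97.0% of it, and Med1 lay 3598 bp away. Members of 1089 bp at chr12:108356570-108357658, of 1082 bp at chr1:167710440-167711521 and of 960 bp at chr6:142913057-142914016 followed. For all 5 the nearest Rad21 neighbour was another member, from 39 to 10259 bp away. Their gaps to Med1 ranged from 3598 bp to over a megabase. Among all 523 members of over 500 bp, 25.8% had Med1 within 10 kb. That share was 31.2% for members of 251 to 300 bp and 30.5% for those of up to 250 bp.

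The member with the widest NIPBL partner, of 4533 bp, was an ordinary Rad21 interval of 275 bp at chr1:88425300-88425574, at the very edge of that partner, with midpoints 2193 bp apart and Med1 2106 bp away. A partner of 3574 bp held a member of 475 bp at chr10:13687229-13687703, with Med1 1485 bp away. At chr5:137043032-137043750 and chr5:137044030-137044361, 2 members shared a partner of 3304 bp, with Med1 gaps of 466 and 512 bp. A partner of 3232 bp at chr5:22938231-22941462 differed from these: its member of 238 bp lay 99 bp from the middle, and the nearest Med1 was 163893 bp away. The last of the 5 partners, of 3116 bp, held members at chr11:3189980-3190498 and chr11:3190602-3190884. Its 1 Mb window had 91 Rad21 and 103 Med1 intervals, the most Med1 intervals of any window with Rad21.

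Across the genome, members took a larger share of Rad21 intervals where NIPBL was dense. Of 1998 windows of 1 Mb with a Rad21 interval, 1485 held a member, with a median of 4 members among those. In windows with 0 to 5 NIPBL intervals free of Rad21, 14.3% of Rad21 intervals were members (288 of 2009). The share was 21.2% with 6 to 10 such intervals, 25.9% with 11 to 20, 33.4% with 21 to 40 and 42.4% with over 40 (4507 of 10621, interval 41.5% to 43.4%). Members per window had a Spearman rho of 0.88 with NIPBL intervals free of Rad21, 0.76 with Rad21 alone and 0.62 with Med1 over the 1998 windows. The rho with intervals of all 3 proteins was 0.44. The lists differ in length, with 16445 Rad21 alone intervals and 1174 with all 3 proteins, so these rho values are not directly comparable. Intervals with all 3 proteins made up 2.99% of Rad21 intervals in the sparsest windows, 2.13% with 6 to 10 and 5.49% in the densest. Membership needs a NIPBL overlap, so a rise with NIPBL density is in part built into the rule, and how much was not tested. These are descriptions, since the counts come from the same 3 libraries and the gene density, base composition and mappability of the windows were not measured.

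Members and Rad21 alone were also set side by side within the groups of windows by NIPBL density. Each group still spans a range of densities, and the densest has no upper limit. Within windows of over 40 NIPBL intervals free of Rad21, Med1 lay within 10 kb of 33.7% of members and 25.3% of Rad21 alone, and within windows of 0 to 5 it did so for 15.6% and 6.55%. Another Rad21 interval lay within 10 kb of 68.1% of members and 52.0% of Rad21 alone in the densest windows, and of 33.7% and 20.95% in the sparsest. In each of the 5 density groups members had the higher share on both counts. Whether NIPBL density accounts for the differences was not tested.

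The member share was similar on most chromosomes. It ran from 26.5% on chromosome 14 to 37.3% on chromosome 10 over the 19 autosomes, with a median of 33.4%. Chromosome X was lower, with 112 members of 553 Rad21 intervals (20.3%, interval 16.98% to 23.8%). NIPBL was also sparser there, at 1.33 intervals per Rad21 interval against 1.69 to 2.16 on the autosomes. The lowest autosomal value was again on chromosome 14. Whether the number of NIPBL intervals accounts for the lower member shares was not tested. Chromosome 17, with its many Med1 intervals, had 33.1% members beside 9.88% with all 3 proteins, where the whole list had 4.32%. Chromosome Y had 1 member among 92 Rad21 intervals, and 85 of those 92 overlapped Med1. Of the 92, 75 lay in the single 1 Mb window chrY:2000001-3000000, where mappability was not measured.

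**Figure D5:**
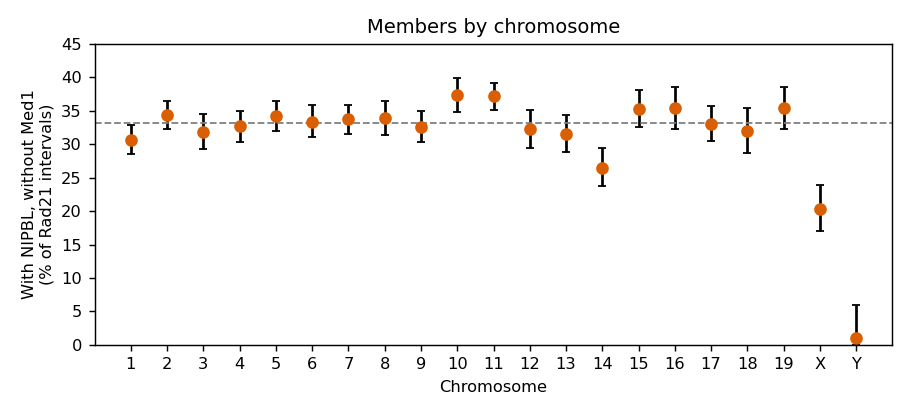
Members as a percentage of the Rad21 intervals of each chromosome (points) with 95% exact binomial intervals (bars); the dashed line marks the genome-wide 33.1%. Autosomes lie between 26.5% and 37.3%, X is at 20.3% and Y at 1.09%.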

How the data were processed

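ChIP-seq peak lists for Rad21, NIPBL and Med1 were used, 1 library each. The authors deposited them as chromosome, start and end, which are positions on mm9 per the submitters' processing notes. The names of the lists point to the peak caller SWEMBL after removal of duplicate reads; its settings, the aligner, the read depth and any pooling of reads before calling are not stated. Coordinates are printed 1-based. Overlaps, gaps and widths were computed in Python 3.11.15 with pandas 2.3.3, checked against bedtools 2.31.1 and on planted intervals; exact binomial (Clopper-Pearson) intervals came from scipy 1.17.1, at 95%. The gene table supplied is GRCm38, and the furthest peak on chromosome 1 (197068201) lies beyond its last gene there (195291439), so no gene, promoter or sequence was tied to a peak. For the same reason the RNA-seq counts were not used here, and the planned motif, promoter and expression results were not made. The Hi-C and input libraries were not analysed here. Regions named are the 5 widest members, the members on the 5 widest NIPBL partners and the 3 longest runs; a region outside this rule is marked as such. The members and this rule were chosen with earlier results of these data known.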

Additional observations from a re-analysis of the deposited data

How the results depend on the processing

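Membership depended most on the width of the intervals. With Rad21 and NIPBL intervals of at least 300 bp only, 3351 members remained, all of them among the 9019. Their share of Rad21 intervals was then 21.1% in place of 33.1%, and their median width 365 bp, which the width limit itself raises. Under the 8 other alternatives the count lay between 8033 (without chromosomes 1 and 17) and 9393 (NIPBL and Med1 widened by 500 bp). Requiring an overlap of 50% of the Rad21 interval gave 8451 members, 8214 of them shared with the main list, and requiring the Rad21 midpoint to lie inside gave 8613, with 8390 shared. Under the main rule and all 9 alternatives, members had the smaller median gap both to Med1 and to another Rad21 interval than Rad21 alone. The sizes of the gaps moved beyond the intervals given above under several alternatives. The median gap to Med1 ran from 24785 to 28628 bp for members and from 37984 to 47592.5 bp for Rad21 alone. To another Rad21 interval it ran from 6880 to 9556 bp and from 14037 to 21711 bp. Leaving out chromosome 17, or 1 and 17, joining Rad21 intervals and counting the end position as inside were chosen after the data were seen. No paired analysis was possible because the results come from single peak lists with no test. The planned promoter, motif and RNA alternatives were not run, as they need an annotation or genome of the mm9 build.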

Other observations

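The windows with the most members are given here as values chosen after they were seen. The 50 windows of 1 Mb with 20 or more members held 1210 members, or 13.4% of all, and 2267 Rad21 intervals, or 8.33% of all. The other members were spread over the rest of the 1485 windows that held any. The windows chr6:71000001-72000000 and chr9:32000001-33000000 held 39 members each, out of 50 and 54 Rad21 intervals, with 9 and 6 Med1 intervals. The window chr3:130000001-131000000 held 27 members among 37 Rad21 intervals, 78 NIPBL intervals free of Rad21 and 0 Med1 intervals. The window chrY:2000001-3000000 held 75 Rad21 intervals, 42 of them with all 3 proteins, and 0 members.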
